A study of Rattus norvegicus with 8 samples.

Results

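The core circadian clock genes were examined in the rat heart as a set of 8 genes, chosen by Ensembl ID with a symbol for each: ENSRNOG00000014448 (Arntl), ENSRNOG00000002175 (Clock), ENSRNOG00000007387 (Per1), ENSRNOG00000020254 (Per2), ENSRNOG00000018413 (Per3), ENSRNOG00000009329 (Nr1d1), ENSRNOG00000046912 (Nr1d2) and ENSRNOG00000021027 (Dbp). All 8 IDs were present among the 21549 genes of each library, and all 8 passed the filter on low counts that left 14214 genes for testing. RNA had been sequenced from hearts of Sprague Dawley rats, an outbred laboratory strain, at 3 months of age, from 4 animals kept in normoxia (titled Control) and 4 kept in chronic hypoxia, that is, low oxygen for a prolonged time. Each library was taken as 1 animal, since the labels describe 4 rats per group. No source used here gives the time of day of tissue collection, the lighting schedule, the degree or duration of the hypoxia, the animals' sex or the cardiac chamber sampled.

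The clock is a feedback loop that runs in nearly every cell, heart muscle cells included, and makes many transcripts rise and fall once a day. The proteins of Arntl (also called Bmal1) and Clock bind E-box sequences as a pair and switch on the Period genes (Per1, Per2, Per3), the REV-ERB genes (Nr1d1, Nr1d2) and Dbp. The Period proteins then repress the Arntl and Clock pair, and the REV-ERB proteins repress Arntl. Arntl RNA is therefore known to peak at a time of day far from the peaks of Nr1d1, Dbp and the Period genes, and the level of each in a heart depends on the hour at which it was taken. Clock RNA is known to cycle weakly.

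The short control sequences through which these genes act on each other are shown here because they are the known routes of regulation within the loop; a match is a description of the letters and not a shown binding site. All 8 genes were matched to RefSeq (build GRCr8), which gave 10 promoter windows of 250 bases before to 50 after a transcription start, Clock and Nr1d1 having 2 windows each. Windows were searched on both strands for the E-box CACGTG, the related E′-box CACGTT, the D-box TTATGTAA or TTACGTAA (bound by the Dbp protein) and the core of the ROR/REV-ERB element, TAGGTCA or TGGGTCA. No match overlapped another. Matches were found in Arntl, Per2 and Nr1d1, and are printed 5′ to 3′ on the gene's strand with the match in capitals.
Arntl, ROR/REV-ERB core, chr1:176766292-176766327 (+): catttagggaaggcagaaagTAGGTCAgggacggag
Per2, E′-box, chr9:99497030-99497075 (−): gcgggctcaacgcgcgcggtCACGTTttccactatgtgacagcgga
Per2, D-box, chr9:99497158-99497205 (−): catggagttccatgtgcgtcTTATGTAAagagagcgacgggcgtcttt
Nr1d1, E′-box read on the opposite strand, chr10:84231961-84232006 (−): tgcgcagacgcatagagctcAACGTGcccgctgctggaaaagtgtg
Nr1d1, E-box of its second window, chr10:84229620-84229665 (−): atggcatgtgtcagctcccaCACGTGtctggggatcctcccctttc

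These matches began 16, 62, 192, 174 and 191 bases upstream of the start, in the order printed. Among all 33469 RefSeq promoter windows, 6.60% held the ROR/REV-ERB core, 4.83% the E′-box, 1.01% the D-box and 6.42% the E-box. The windows of Clock, Per1, Per3, Nr1d2 and Dbp held none of these motifs, which says nothing of sites elsewhere.

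Between the groups, 2 of the 8 clock genes differed, Per1 and Per3, and both were lower in the hypoxic hearts, by about 1.8-fold. The other Period gene, the activators, the REV-ERB genes and Dbp did not pass the test, and several of them differed widely among the 4 hypoxic hearts. Over all 14214 genes, 33.0% passed the same test and 15.3% passed it as lower in hypoxia (edgeR's quasi-likelihood test, with an adjusted p under 0.05 by Benjamini and Hochberg), so a count of 2 in 8 is near the background. The median log2 fold change was −0.15 over the 8 clock genes and 0.01 over all genes tested. In RNA from heart tissue, fewer cells of a type and less RNA per cell cannot be told apart.

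Levels are given as CPM, counts relative to the TMM-scaled library size. Per1, the Period gene known to respond fastest to acute signals, stood at 92.5, 109, 94.8 and 81.9 CPM in normoxia libraries 1 to 4. In hypoxia libraries 1 to 4 it stood at 32.1, 68.1, 71.5 and 33.4 CPM. All 4 hypoxic hearts lay below all 4 normoxic hearts, with libraries 1 and 4 far lower than libraries 2 and 3. Of all genes tested, 17.1% likewise had every hypoxic heart below every normoxic one. The mean fell from 94.6 ± 11.2 to 51.3 ± 21.4 CPM (SD, n = 4 each), which is 1.84-fold lower. The log2 fold change was −0.88 (SE 0.26; adjusted p = 0.0258, edgeR). The call for Per1 was close to the threshold: without normoxia library 1, 2 or 3 or hypoxia library 4 the adjusted p was 0.0527, 0.0699, 0.0585 and 0.0519, with log2 fold changes from −0.90 to −0.73.

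Per3, the Period gene thought to be least needed for the core loop, stood at 36.5, 66.4, 56.0 and 53.9 CPM in normoxia libraries 1 to 4. In hypoxia libraries 1 to 4 it stood at 30.4, 26.6, 36.2 and 23.1 CPM. The groups again did not overlap, but normoxia library 1 and hypoxia library 3 nearly met. The mean fell from 53.2 ± 12.4 to 29.1 ± 5.60 CPM (SD, n = 4 each), which is 1.83-fold lower. The log2 fold change was −0.87 (SE 0.19; adjusted p = 0.00666, edgeR). Per3 passed the test with each library left out in turn, with log2 fold changes between −1.02 and −0.75.

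Per2, a repressor required for a stable daily rhythm, stood at 42.9, 52.5, 49.7 and 43.9 CPM in normoxia libraries 1 to 4. In hypoxia libraries 1 to 4 it stood at 31.1, 63.4, 29.98 and 14.6 CPM. Hypoxia libraries 1, 3 and 4 were thus below every normoxic heart, whereas hypoxia library 2 was above every one. The difference did not pass, with a log2 fold change of −0.44 (95% interval −1.20 to 0.31; adjusted p = 0.342, edgeR). The estimate rested on which hypoxic hearts were kept: it was −0.91 without hypoxia library 2 (SE 0.23; adjusted p = 0.0165, edgeR) and −0.19 without hypoxia library 4 (SE 0.24; adjusted p = 0.583, edgeR). With a pair left out it was −1.09 without hypoxia libraries 1 and 2 (adjusted p = 0.00604, edgeR) and −0.0070 without libraries 3 and 4 (adjusted p = 0.985, edgeR).

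**Figure D1:**
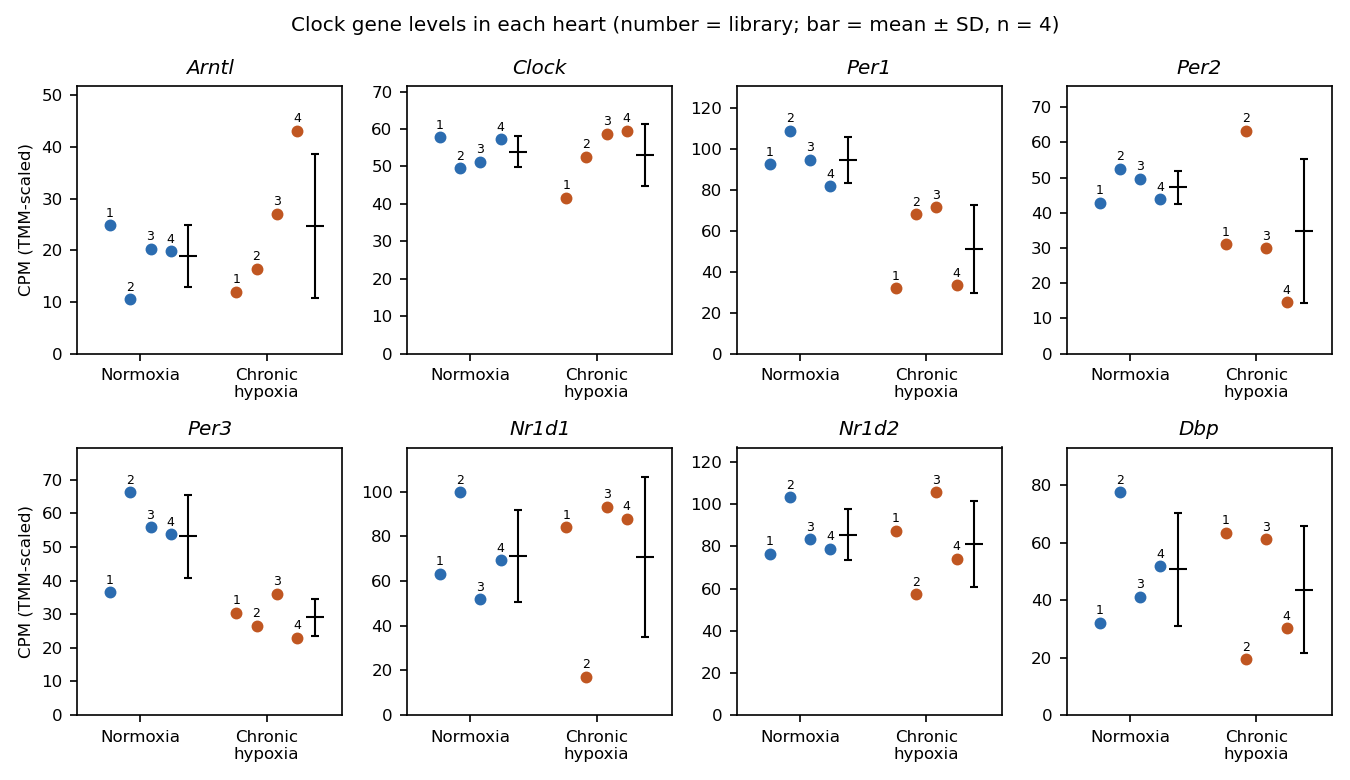
Level of each clock gene in each heart, in CPM scaled by TMM on a linear axis from 0, with normoxia in blue and chronic hypoxia in orange. Numbers are library numbers and black bars are the mean ± SD (n = 4). Per1 and Per3 show groups that do not overlap, and hypoxia library 2 is lowest for Nr1d1 at 17.2 CPM and highest for Per2 at 63.4 CPM.

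Arntl, the activator without which the loop stops, stood at 24.8, 10.5, 20.3 and 19.8 CPM in normoxia libraries 1 to 4. In hypoxia libraries 1 to 4 it stood at 11.96, 16.4, 27.1 and 43.2 CPM. The groups overlapped in part: the lowest of the 8 values was in normoxia library 2, and hypoxia libraries 3 and 4 lay above every normoxic heart. The log2 fold change was 0.39 (95% interval −0.45 to 1.22; adjusted p = 0.458, edgeR), and it was −0.03 without hypoxia library 4.

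Clock, the partner of Arntl, was the steadiest of the 8. It ranged from 49.5 to 57.8 CPM in normoxia and from 41.6 to 59.6 CPM in hypoxia, with hypoxia library 1 below the rest. Its log2 fold change of −0.02 (95% interval −0.29 to 0.24; adjusted p = 0.900, edgeR) had the narrowest interval of the 8. Clock has the longest gene model of the 8, at 9419 bp.

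Nr1d1, the REV-ERBα receptor that represses Arntl, stood at 63.3, 99.8, 51.8 and 69.4 CPM in normoxia libraries 1 to 4. In hypoxia libraries 1 to 4 it stood at 84.1, 17.2, 93.4 and 88.0 CPM. Hypoxia library 2 was lower than the remaining 7 hearts, while the other hypoxic hearts lay within the normoxic range. The group means of 71.1 ± 20.5 and 70.7 ± 35.8 CPM (SD, n = 4 each) were nearly equal, but the 95% interval of the log2 fold change was wide, −0.95 to 0.93 (edgeR adjusted p = 0.990). Without hypoxia library 2 the log2 fold change was 0.31 (SE 0.19; adjusted p = 0.250, edgeR). In RefSeq (build GRCr8) the gene overlaps Thra, a thyroid hormone receptor gene. The counts were made on build rn6, and no source used here gives the annotation or strand setting of the counting. How reads of a shared stretch were counted is therefore not known. Clock and Per2 overlap noncoding genes in RefSeq.

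Nr1d2, the REV-ERBβ receptor with a partly redundant role, stood at 76.5 to 103 CPM in normoxia and at 87.5, 57.5, 106 and 74.2 CPM in hypoxia libraries 1 to 4. As with Nr1d1, hypoxia library 2 was the lowest of all 8. The log2 fold change was −0.08 (95% interval −0.46 to 0.31; adjusted p = 0.765, edgeR).

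Dbp, a transcription factor that carries the rhythm to other genes through D-boxes, stood at 32.2, 77.6, 41.2 and 51.7 CPM in normoxia libraries 1 to 4. In hypoxia libraries 1 to 4 it stood at 63.5, 19.4, 61.3 and 30.3 CPM. Hypoxia library 2 was again lowest, and normoxia library 2 was highest, as it was for Nr1d1, Per1 and Per3. The log2 fold change was −0.22 (95% interval −1.06 to 0.62; adjusted p = 0.688, edgeR).

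**Figure D2:**
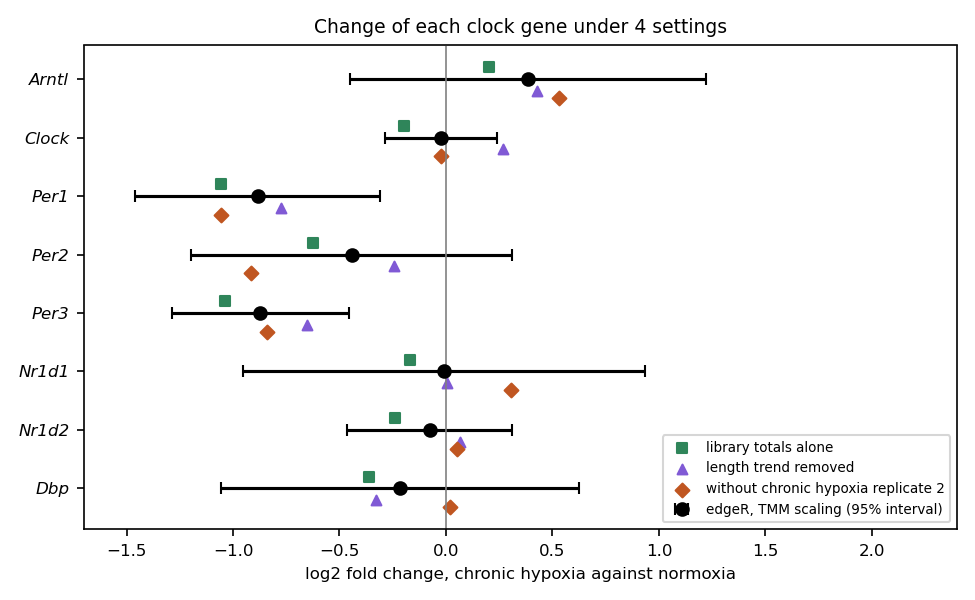
Log2 fold change of each clock gene, chronic hypoxia against normoxia, with the edgeR estimate and its 95% interval in black, and estimates scaled by library totals alone (squares), with the gene-length trend removed (triangles) or without hypoxia library 2 (diamonds). The intervals of Per1 and Per3 lie below 0, and the estimate for Per2 moves from −0.44 to −0.91 without hypoxia library 2.

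Gene length and library scaling touch these values. Log2 fold changes were lower in longer gene models (Spearman's rho −0.303 across the tested genes, which do not count as replicates). The models of Per1 and Per3 are 4049 and 6466 bp long. Those of Clock, Per2 and Nr1d2 are 9419, 5783 and 4610 bp long. With each library's length trend removed, Per1 was at −0.77 (SE 0.25; adjusted p = 0.0424, edgeR), Per3 at −0.65 (SE 0.17; adjusted p = 0.0220, edgeR) and Clock at 0.27 (edgeR adjusted p = 0.0828). Per2 was then at −0.24 and Nr1d2 at 0.07 (edgeR adjusted p = 0.624 and 0.793). Gene length as a cause of the group differences was not tested. Scaling by library totals in place of TMM moved the median of all genes by about −0.17, to which Per1 at −1.06 and Per3 at −1.04 can be compared. Library totals ran from 26229304 to 32160710 counts. Each clock gene had between 321 and 3325 counts per library, so that counting error alone was 1.73% to 5.58% of a value.

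Set side by side, the 8 genes gave each hypoxic heart its own profile. Values here are log2 CPM minus the gene's mean over the 8 libraries. The difference between the groups is part of these values: Per3 lay below its mean in every hypoxic heart, at −0.09 to −0.74. Hypoxia library 2 combined high Per2 (0.74) with low Nr1d1 (−1.88), Dbp (−1.15), Nr1d2 (−0.51) and Per3 (−0.54). Hypoxia library 4 combined high Arntl (1.12) with low Per2 (−1.37), Per1 (−1.004), Per3 (−0.74) and Dbp (−0.51), while its Nr1d1 was above average (0.47). These hearts were thus far apart in Nr1d1, Arntl and Per2. Hypoxia library 1 had low Arntl (−0.73) and Per1 (−1.06) with high Dbp (0.55), and hypoxia library 3 had its largest deviation from the mean in Nr1d1 (0.55). Among the normoxic hearts, library 2 had low Arntl (−0.91) with all 3 Period genes, both REV-ERB genes and Dbp above the mean, at 0.33 to 0.84.

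**Figure D3:**
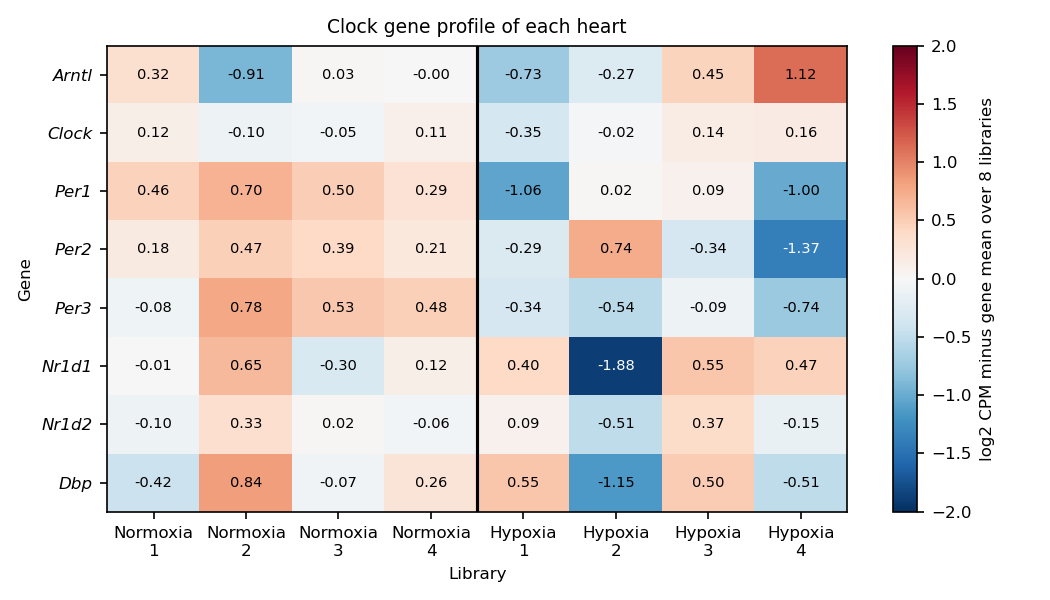
Deviation of each clock gene in each library from the gene's mean over the 8 libraries, in log2 CPM (red above, blue below, printed in each cell), with normoxia left of the black line. Hypoxia library 2 is low in Nr1d1 (−1.88) and Dbp (−1.15), and hypoxia library 4 is high in Arntl (1.12) and low in Per2 (−1.37).

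The spread between hearts of a group, as the SD of log2 CPM over 4 hearts, was larger in hypoxia for 7 of the 8 genes, Per3 being the exception (0.36 in normoxia and 0.28 in hypoxia). The same was so for 78.7% of all genes tested, so the count is near the background. The exception of Per3 rested on normoxia library 1. Without that library its normoxic SD was 0.16, and all 8 genes had the larger SD in hypoxia. Nr1d1 had an SD of 0.40 in normoxia and 1.18 in hypoxia, above 98.4% of tested genes in hypoxia. Library 2 alone made that value: over the other 3 hypoxic hearts the SD of Nr1d1 was 0.076, against a median of 0.22 over all genes tested in the same 3. Per2 was near the median gene in normoxia, at 0.14 against 0.13, and wide in hypoxia, at 0.86, above 95.8% of tested genes. Its hypoxic SD was 0.61 without library 2 or without library 4, and 1.06 without library 1 or without library 3. Arntl and Dbp had large SDs in both groups: 0.53 and 0.54 in normoxia, above 95.3% and 95.4% of tested genes, and 0.81 and 0.83 in hypoxia. In normoxia much of this came from library 2. Without it the SD was 0.18 for Arntl and 0.34 for Dbp, against a median of 0.11 over all genes tested. Clock was near the median gene in both, at 0.11 against 0.13 in normoxia and 0.24 against 0.23 in hypoxia.

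**Figure D4:**
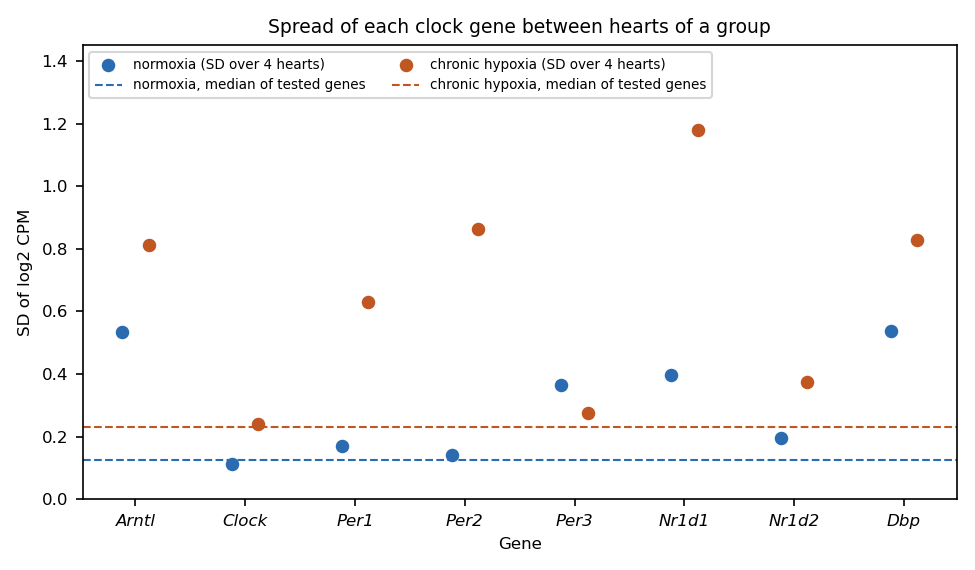
SD of log2 CPM over the 4 hearts of each group for each clock gene (points), with the median SD of all tested genes as dashed lines (0.13 in normoxia, 0.23 in hypoxia). Nr1d1 in hypoxia is highest, at 1.18, a value that library 2 makes (0.076 without it), and Clock lies near the lines.

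Ratios of genes within a heart, which no library scaling affects, were taken for 3 pairs chosen after the values were seen, from FPKM values (counts divided by library total and gene length). Arntl to Per2, activator to repressor, was 1.13, 0.390, 0.794 and 0.876 in normoxia libraries 1 to 4, and 0.749, 0.504, 1.76 and 5.75 in hypoxia libraries 1 to 4. Hypoxia library 4 therefore had the highest ratio of the 8 hearts and library 3 was also above the normoxic range, while libraries 1 and 2 lay inside it. Nr1d1 to Per2, both targets of the Arntl and Clock pair, was 3.35, 4.31, 2.36 and 3.58 in normoxia, and 6.14, 0.616, 7.06 and 13.7 in hypoxia libraries 1 to 4. The normoxic hearts thus kept this ratio within 1.82-fold, the hypoxic hearts spanned 22.2-fold (2.23-fold without library 2), and no hypoxic heart lay inside the normoxic range. Hypoxia libraries 1, 3 and 4 were above that range and library 2 was below it. Arntl to Dbp spanned 5.69-fold in normoxia and 7.57-fold in hypoxia (4.49-fold without library 4), and the groups overlapped in it.

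**Figure D5:**
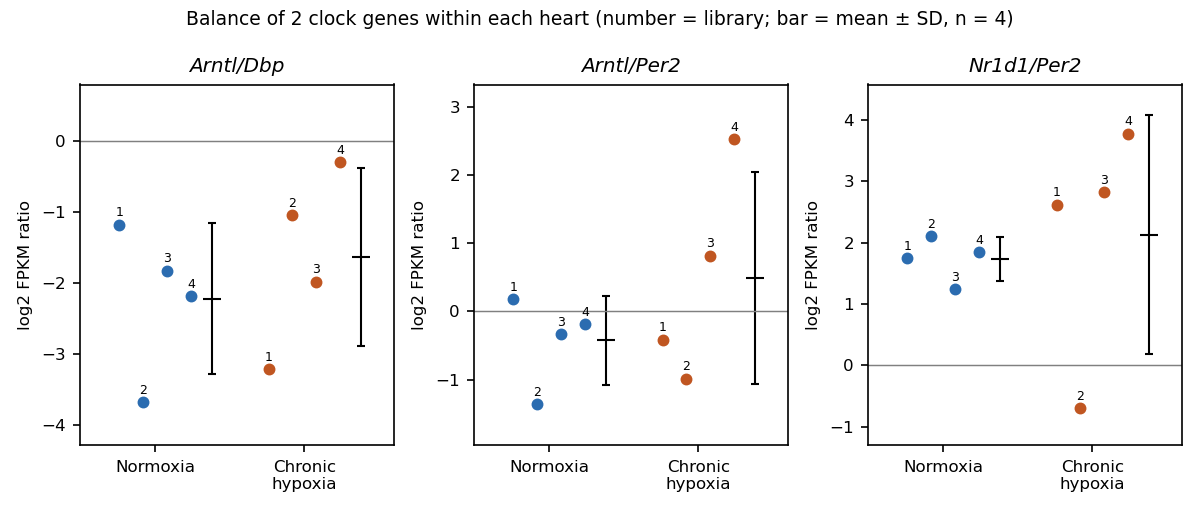
Log2 ratio of the FPKM values of a pair of clock genes in each heart, with library numbers and the mean ± SD (n = 4) as black bars. For Nr1d1/Per2 the normoxic hearts lie between 1.24 and 2.11, 3 hypoxic hearts lie above them and hypoxia library 2 lies below, at −0.70.

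By level per gene length, Dbp and Nr1d1 were highest and Clock was among the lowest. FPKM is scaled by library totals and not by TMM, so the orders are read within a group and the means are not compared between groups. In normoxia the order by mean FPKM was Dbp (31.7 ± 12.6), Nr1d1 (29.7 ± 8.88), Per1 (24.9 ± 3.41), Nr1d2 (19.7 ± 3.09), Per3 (8.74 ± 2.09), Per2 (8.69 ± 0.976), Arntl (6.73 ± 2.14) and Clock (6.08 ± 0.411; SD, n = 4). Of neighbours in that order, the ranges of Nr1d2 and Per3 alone did not overlap, so the set fell into 4 higher and 4 lower genes. In hypoxia the order was Nr1d1 (26.4 ± 13.8), Dbp (24.6 ± 13.6), Nr1d2 (16.8 ± 5.06), Per1 (11.95 ± 5.15), Arntl (7.74 ± 4.14), Per2 (5.63 ± 3.13), Clock (5.30 ± 0.811) and Per3 (4.27 ± 1.05), and all neighbours overlapped. Over all 8 libraries the mean FPKM of the clock genes lay between the 52.2 and 87.0 percentiles of the tested genes.

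The tested genes most like Arntl and Dbp over the 8 libraries were found by root mean square distance in log2 CPM centred on each gene's mean, among 12651 other genes of at least 1 CPM. Closest to Arntl were ENSRNOG00000016143 (distance 0.24) and ENSRNOG00000007238 (0.25), against a median distance of 0.66. Closest to Dbp were ENSRNOG00000011777 (0.36) and ENSRNOG00000000471 (0.37), against a median of 0.67. The nearest of 12651 genes lie below the median by the way they were picked, so these distances are no test of likeness. None of these 4 genes passed the test between the groups (edgeR adjusted p of 0.808, 0.779, 0.330 and 0.264), and all were of low level, between 0.416 and 4.59 CPM. Their symbols are not paired with the IDs in the files. For the same reason other clock genes, clock output genes and markers of heart cell types were not analysed here, and the tissue label was not checked against markers.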

How the data were processed

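RNA from 8 rat hearts was analysed (4 normoxia, 4 chronic hypoxia, grouped by title). The authors deposited whole-number read counts per Ensembl gene for each library, and FPKM values that equal the deposited counts divided by library total and gene-model length. Per the submitters' processing notes, HTSeq 0.6.0, HISAT2 2.1.0, Bowtie2 2.2.3 and bcl2fastq were used with build rn6; no source used here gives the annotation or strand setting. Counts were filtered (filterByExpr, minimum count 10), scaled by TMM and fitted with edgeR 4.0.16 (R 4.3.3) with group as the only term, adjusting over all 14214 genes tested. SE and 95% intervals come from the quasi-likelihood statistic, and log2 CPM used a prior count of 2. On simulated data for this comparison (14067 genes), edgeR recovered 90 of 100 genes changed by a log2 fold of 1 and 26 of 100 changed by 0.5. Far fewer genes were changed there than were called in the real data, and the spread of a gene was the same in both groups. The shares recovered therefore do not carry over to the clock genes. Alternatives were other scalings, DESeq2 1.42.0, limma 3.58.1 (voom, or trended limma on log2 FPKM with 1 or 0.1 added), no filter, a length correction, a replicate block and left-out libraries. The 8 genes, their symbols and the tests were chosen with earlier results of these data known. All 8 genes are named by rule, with the 2 nearest genes to Arntl and to Dbp. RefSeq (GRCr8) matched 0 of the files' IDs, so members were matched by symbol.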

Additional observations from a re-analysis of the deposited data

Results flagged for a closer look

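Nr1d1 in hypoxia library 2, at 17.2 CPM, stood apart from the other hypoxic hearts, which lay at 84.1 to 93.4 CPM. Its gap to the nearest of them was 0.878 of the whole range, above Dixon's 95% critical value for a group of 4. Chance marks about 5% of groups, and 1 of 22 groups was marked here. Dbp and Nr1d2 were also lowest in that library, at 19.4 and 57.5 CPM, and Per2 was highest there, at 63.4 CPM. Its total of counts was the largest of the 8, at 32160710, and the part of depth in these values was not tested.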

How the results depend on the processing

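In 21 alternatives, 8 genes gave 168 estimates: 144 kept direction and side of the threshold, 4 lost a call (all Per1), 3 gained one and 17 changed sign, none of these 17 with a call before or after. The number of clock genes called stayed at 2 (Per1 and Per3) under the other scalings, tools, filters, FPKM scales, the length correction and the replicate block. Leaving out each library gave 1 to 3 called. Without hypoxia libraries 1 and 2, 4 were called (Per1, Per2 and Per3 lower, Arntl higher at 0.89, adjusted p = 0.0308, edgeR). In that fit 5982 of all 14684 genes tested were called, against 4693 of 14214 in the main fit. Without hypoxia libraries 3 and 4, 2 clock genes were called. Other pairs of hypoxia libraries were not tried. All tested genes called numbered 3315 to 4758 with a library left out. With a library left out the log2 fold change ran from −0.034 to 0.61 for Arntl, −0.086 to 0.072 for Clock, −0.46 to 0.063 for Dbp, −0.17 to 0.31 for Nr1d1, −0.23 to 0.051 for Nr1d2, −1.08 to −0.72 for Per1 and −0.91 to −0.19 for Per2. The sign also changed with the length trend removed for Clock (0.27), Nr1d1 (0.0057) and Nr1d2 (0.066), without hypoxia libraries 1 and 2 for Clock (0.12), Nr1d1 (0.34) and Nr1d2 (0.064), and without hypoxia libraries 3 and 4 for Arntl (−0.42). The difference in log2 ratio with a library left out was 0.10 to 1.11 for Arntl to Dbp, 0.23 to 1.40 for Arntl to Per2 and −0.15 to 1.34 for Nr1d1 to Per2, and 6 to 8 genes had the larger SD in hypoxia (alternatives for the SDs were chosen after seeing the data). With library totals alone 26.9% of all calls were higher in hypoxia, against 53.6% under TMM. With the replicate block Per1 was at −0.97 and Per3 at −0.86, but nothing in the data pairs equal numbers: deviations from the group means correlated at −0.0847 to 0.0187 between libraries of equal number, and 0 of 4 normoxia libraries had their best match there. A change of 0.5 on the log2 scale was often missed in simulated data. The simulation changed few genes and gave both groups the same spread, so the share missed among the clock genes is not known. The cause of the shifts between alternatives was not tested.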

Other observations

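Over the 8 libraries the closest patterns among the clock genes, by root mean square distance in centred log2 CPM, were those of Clock and Nr1d2 (0.33), Nr1d2 and Dbp (0.39) and Per1 and Per3 (0.40). The farthest were Per2 and Nr1d1 (1.23) and Arntl and Per2 (1.13). Genes that vary little have short distances to each other, and the group difference is part of that of Per1 and Per3.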
